A study of Homo sapiens with 8 samples.

Results

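The genes described here are those of the nuclear genome that encode subunits of the mitochondrial respiratory chain and ATP synthase. They were chosen by name and not by expression: protein-coding genes outside the mitochondrial genome whose name in release 29 of the GENCODE annotation begins with NDUF and a letter A, B, C, S or V, with UQCR, with COX4 to COX8, or with ATP5. This gave 86 of the 58735 genes in the data, 39 of them for complex I, 9 for complex III, 17 for complex IV and 21 for complex V. The cells were U2OS, a human osteosarcoma line, carrying a control shRNA (control cells here) or a WSB2 shRNA (KD cells). The control cells are named shControl in the sample titles and WT in the study's text. The WSB2 shRNA is a short hairpin RNA against the transcript of WSB2, a substrate receptor of Cullin-RING ubiquitin ligases. Cells of each kind were left unstimulated or stimulated for 5 h with the NF-κB-activating cytokine TNF-α, and total RNA was sequenced. There were 2 libraries for each of the 4 groups, 8 in all, with the control shRNA or the WSB2 shRNA as the difference of genotype and nothing stated of separate cultures, of the dose of TNF-α in these cells or of which WSB2 shRNA was used. The P-values therefore measure the spread between libraries, pooled over the 4 groups, and this spread may be technical.

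Complex I (NADH dehydrogenase, NDUF genes), complex III (cytochrome bc1, UQCR genes) and complex IV (cytochrome c oxidase, COX genes) pass electrons from NADH to oxygen and pump protons across the inner mitochondrial membrane, and complex V (ATP synthase, ATP5 genes) uses the returning protons to make ATP. Complexes I, III, IV and V each combine these imported subunits with a few that the mitochondrial genome encodes, so that their assembly draws on both genomes. In vertebrate cells the factors NRF1, GABPA (an ETS factor, also called NRF2) and YY1 are known to bind promoters of many of the nuclear genes.

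Values were FPKM, fragments scaled to exon length and to a library size, which were made from 15601098 to 18677023 reads per library. The targeted gene WSB2 was at 27.7 and 28 FPKM in unstimulated control cells and at 8.38 and 8.52 FPKM in unstimulated KD cells. With TNF-α it was at 25 and 25.3 FPKM in control cells and at 9.0 and 9.18 FPKM in KD cells. Of the markers expected in a mesenchymal tumour line, VIM was between 146 and 239.7 FPKM, SPARC between 216 and 293 FPKM, RUNX2 was between 1.29 and 2.94 FPKM, and COL1A2 was not above 0.0933 FPKM, so this marker was close to absent. The epithelial, blood and endothelial markers EPCAM, CDH1, PTPRC, CD3E and PECAM1, and TERT, were all at or below 0.482 FPKM. The unstimulated KD libraries stood apart from the other 6 before any member was considered: 26225 and 26397 genes had a read, against 22072 to 22957, mitochondrial genes took 4.10% and 4.42% of the reads, against 1.11% to 2.03%, and GC content, averaged over genes by their reads, was 49.9% and 49.4%, against 52.5% to 53.2%. The factor by which the authors scaled the library size was 1.21 in these 2 libraries and 0.925 to 1.03 in the others.

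Of the 86 members, 75 passed the filter on low reads and were tested (36 of complex I, 9 of complex III, 11 of complex IV and 19 of complex V), among 16528 genes in all. The 11 others were mostly the tissue-restricted isoforms. COX6A2 and COX8C, muscle and testis forms of complex IV subunits, and ATP5MGL had 0 reads in the 8 libraries together. COX4I2, COX6B2, COX7A1 and COX7B2, the other alternative complex IV isoforms, had 4, 19, 48 and 4 reads, and NDUFA4L2 had 7. The coding bases of COX6B2 lie 100% in exons of another gene on the same strand (AC020922.1), so its level is uncertain. The readthrough genes NDUFC2-KCTD14 and ATP5MF-PTCD1 had 2 and 8 reads, and NDUFA7, an accessory subunit of complex I, had 40. The somatic forms in the same families were all well expressed, COX4I1 at a mean of 68.5 FPKM over the 8 libraries, COX6A1 at 51.1, COX6B1 at 158, COX7A2 at 65.0, COX7B at 21.3 and COX8A at 358.

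Among tested members, ATP5F1B, the catalytic β subunit of ATP synthase, had the highest mean (364 FPKM), followed by COX8A (358 FPKM) and NDUFS5 (251 FPKM). The lowest were NDUFV2 (0.212 FPKM, 83 reads in all), NDUFA13 (0.381 FPKM, 141 reads) and ATP5S (1.45 FPKM), which is now named DMAC2L and is not a core subunit. NDUFV2 and NDUFA13 encode constitutive complex I subunits, and much of their coding sequence lies in exons of another gene annotated on the same strand: 84.7% for NDUFV2 (AP005263.1) and 55.2% for NDUFA13 (AC011448.1), and 78.3% for the untested NDUFA7 (AC010323.1). Of the 10 tested members with over 50% of their coding bases shared in this way, 8 were below 10 FPKM, with a median of 4.68 FPKM, against 12 of the 63 members with no such overlap, whose median was 32.8 FPKM. COX8A and COX6A1 were the exceptions. How reads in shared exons were assigned was not given in the sources used here, nor whether the counting used the strand, so the levels of these 10 members are uncertain. FPKM was also divided by the length of all annotated exons together. ATP5F1A and ATP5F1B, which form the same hexamer, differed in mean level by 34.8 against 364 FPKM and in reads by 51095 against 112571, with exon lengths of 10908 and 2322 bases.

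In unstimulated cells, WSB2 KD cells had lower levels of most respiratory chain transcripts than control cells, in all of complexes I, III, IV and V. The FPKM of the 86 members summed to 5284 and 3813 in the control libraries and to 2461 and 2088 in the KD libraries, so that the KD mean (2274 ± 264, SD, n = 2) was 50.0% of the control mean (4549 ± 1039.7, SD, n = 2). Of the 75 tested members, 61 fell and 2 rose (limma on log2(FPKM + 1), Benjamini-Hochberg adjusted p under 0.05). Among all 16528 genes tested, 30.2% were called lower and 29.8% higher. The median log2 fold change of the members was -0.80 and that of all genes -0.00. Both KD libraries lay below both control libraries for 65 members and above them for 5, against 39.7% and 40.1% of all genes. The spread was pooled over the 4 groups, although the unstimulated control libraries differed most. Their variance over sampling noise was 33, against 2.49 to 7.23 in the other groups. The P-values of this comparison, and of others that use these libraries, may therefore be too small. In bulk RNA, fewer cells of a kind and less of a transcript per cell cannot be told apart. The mitochondrial share of reads, the GC content and the number of genes detected, given above, separated the same libraries. The GC content entered a correction described below, and the part of the others in the result was not tested.

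**Figure D1:**
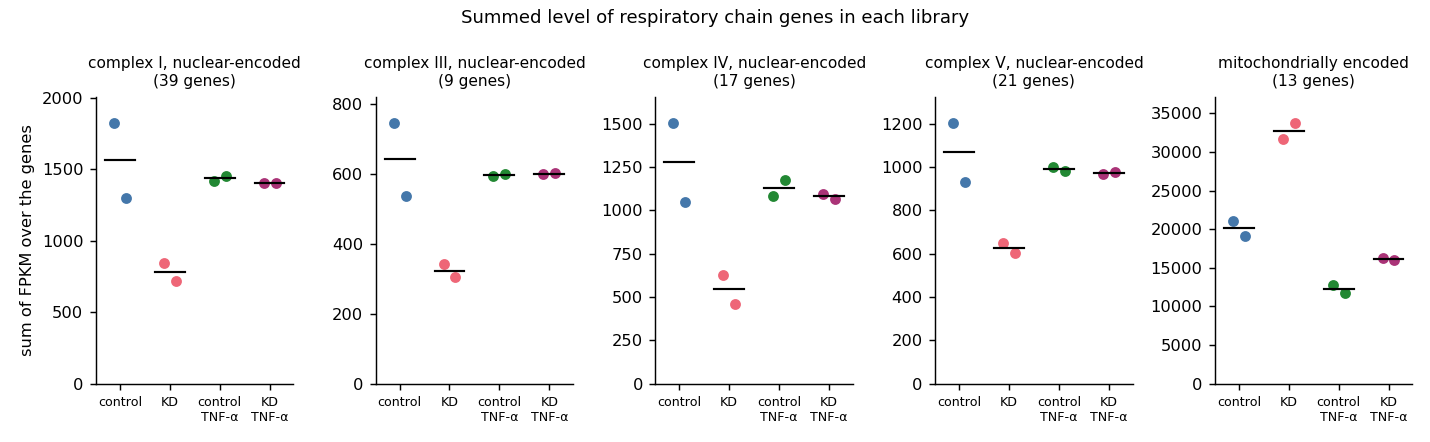
Sum of FPKM over the nuclear-encoded genes of complexes I, III, IV and V and over the 13 mitochondrially encoded subunits (vertical axes, each with its own scale from 0) in each library of the 4 groups (points), with the group mean as a line. The nuclear-encoded sums are lowest in the 2 unstimulated KD libraries in every complex, while the mitochondrially encoded sum is highest there.

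Complex IV had the largest median difference. Its 11 tested members were all lower in both KD libraries, 10 of them called (median log2 fold change -1.09), and its FPKM summed to 1505 and 1048 in control libraries and 628 and 462 in KD libraries. COX5B, a zinc-binding subunit on the matrix side, was at 177 and 118 FPKM in control cells and at 61.2 and 43.1 FPKM in KD cells (log2 fold change -1.48, standard error 0.215, adjusted p = 7.69e-04). COX8A, a small membrane subunit, was at 555 and 382 FPKM and at 229 and 137 FPKM (log2 fold change -1.37, standard error 0.266, adjusted p = 0.00291). In both genes the KD libraries were clearly separate from the control libraries, although the 2 control libraries themselves differed. COX4I1 and COX5A, subunits bound early in assembly, fell by 1.2 and 0.89 on the log2 scale, and COX6C fell by 0.59. COX6C has 17 processed or other pseudogenes that carry its name, with which reads may be shared. COX7B was the member not called, at 27.0 and 19.6 FPKM in control cells and at 17.7 and 17.8 FPKM in KD cells (adjusted p = 0.0533), and once length and GC content were corrected for, as described below, it was called lower too (log2 fold change -0.68, adjusted p = 0.0034). NDUFA4, named for complex I but now known as a complex IV subunit, fell by 0.78.

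In complex I, 30 of 36 tested members fell and 2 rose, with a median of -0.79. NDUFB7, an accessory subunit of the membrane arm that faces the intermembrane space, had the largest fall of all members, from 239.6 and 159.8 FPKM in control cells to 75.8 and 58.1 FPKM in KD cells (log2 fold change -1.54, standard error 0.198, adjusted p = 4.65e-04). NDUFB11, also of the membrane arm, was at 171 and 111 FPKM in control cells and at 57.7 and 46.9 FPKM in KD cells (log2 fold change -1.39, adjusted p = 5.65e-04). NDUFS6, an accessory subunit of the matrix arm, was at 118 and 77.0 FPKM in control cells and at 45.1 and 29 FPKM in KD cells (log2 fold change -1.37, adjusted p = 0.00191). These 3 genes had no overlap between the groups. The smallest called fall in complex I was that of NDUFA10, at 9.16 and 8.01 FPKM in control cells and at 6.54 and 6.07 FPKM in KD cells (log2 fold change -0.39, adjusted p = 0.00715). Nuclear-encoded core subunits, which hold the flavin, the iron-sulfur clusters and the path to ubiquinone, differed in their values. NDUFS3, NDUFS7, NDUFS8 and NDUFV1 fell, by 0.89, 0.91, 1.36 and 1.03 on the log2 scale. NDUFS1, the largest core subunit, was at 6.62 and 7.80 FPKM in control cells and at 8.22 and 8.17 FPKM in KD cells (log2 fold change 0.17, adjusted p = 0.170). After the same correction its sign turned and it was called lower (log2 fold change -0.42, adjusted p = 0.00259).

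The 2 members called higher were NDUFA5, an accessory subunit of the matrix arm, and the core subunit NDUFV2, both at low levels. NDUFA5 was at 1.48 and 1.17 FPKM in control cells and at 2.10 and 2.20 FPKM in KD cells (log2 fold change 0.44, standard error 0.102, adjusted p = 0.00697). It has the lowest GC content of the tested members (35%), 12 pseudogenes that carry its name and, once GC content and gene length were corrected for, the opposite sign (log2 fold change -0.41, adjusted p = 0.0267). NDUFV2 was at 0.172 and 0.170 FPKM in control cells and at 0.279 and 0.631 FPKM in KD cells (log2 fold change 0.30, adjusted p = 0.0433). Its call rested on the second KD library, without which the log2 fold change was 0.13 (adjusted p = 0.232), and after the correction it was -0.02.

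In complex III, 6 of 9 members fell, with a median of -0.80. UQCRC1, a core subunit, fell by 1.21 on the log2 scale, from 161 and 122 FPKM in control cells to 62.0 and 57.8 FPKM in KD cells (standard error 0.127, adjusted p = 2.42e-04). Its partner UQCRC2 was at 18.1 and 15.9 FPKM in control cells and at 16.3 and 17.9 FPKM in KD cells (log2 fold change 0.01, adjusted p = 0.949), so the groups overlapped. UQCRFS1, the Rieske iron-sulfur protein, fell by 0.64 and UQCRH, the hinge protein, by 0.80. UQCRB, a ubiquinone-binding subunit, was not called (log2 fold change -0.07, adjusted p = 0.634), but after the correction it was called lower (log2 fold change -0.83, adjusted p = 0.00326). UQCRHL, an intronless copy of UQCRH with which it may share reads, was at 1.3 to 3.15 FPKM over the 8 libraries and was not called either.

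In complex V, 15 of 19 tested members fell and none was called higher, with a median of -0.74. Of the F1 head, ATP5F1D (δ) fell by 1.32 on the log2 scale, from 73.7 and 46.0 FPKM in control cells to 22.5 and 23.0 FPKM in KD cells (standard error 0.185, adjusted p = 6.55e-04). ATP5F1B (β) was at 442 and 389.6 FPKM in control cells and at 244 and 232 FPKM in KD cells (log2 fold change -0.80, standard error 0.108, adjusted p = 5.59e-04). ATP5F1A (α) fell by 0.43, and the values for ATP5F1C (γ, log2 fold change -0.21, adjusted p = 0.0752) and ATP5F1E (ε, log2 fold change -0.47, adjusted p = 0.0518) missed the threshold. After the correction both were called lower, with log2 fold changes of -0.36 and -1.04 (adjusted p = 0.00391 and 0.0037). ATP5MC1, ATP5MC2 and ATP5MC3, which encode the same mature c subunit of the proton-driven ring, fell by 1.06, 1.04 and 0.95. The stalk subunit ATP5PO fell by 0.48 and the inhibitor of the reverse reaction ATP5IF1 by 0.55. After the correction ATP5IF1 was no longer called (log2 fold change -0.32, adjusted p = 0.155). ATP5PB, the b subunit of the stalk, was at 60.2 and 50.8 FPKM in control cells and at 54.5 and 55.3 FPKM in KD cells (log2 fold change -0.01, adjusted p = 0.947). In complexes III and V, the called falls thus stood beside a subunit of the same complex, UQCRC2 and ATP5PB, whose groups overlapped and which was not called after the correction either (adjusted p = 0.336 and 0.0616). In complex I the same held for NDUFS4 (log2 fold change -0.07, adjusted p = 0.670, and -0.31, adjusted p = 0.0530, after the correction).

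**Figure D2:**
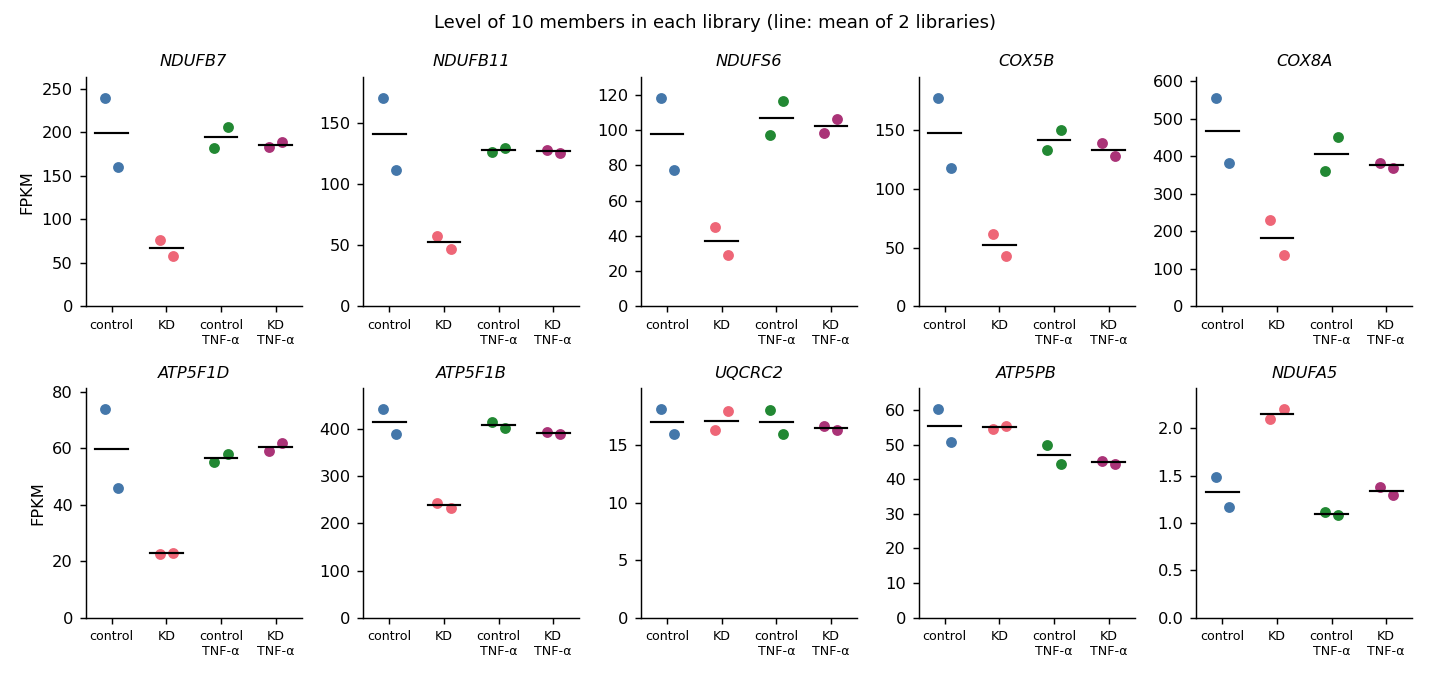
FPKM of 10 members in each library (points) of the 4 groups, with the mean of the 2 libraries as a line and axes from 0. In NDUFB7, NDUFB11, NDUFS6, COX5B, COX8A, ATP5F1D and ATP5F1B the unstimulated KD libraries are the lowest of the 8, in UQCRC2 and ATP5PB they lie among the unstimulated control libraries, and in NDUFA5 they are the highest.

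The 2 unstimulated control libraries differed for these genes more than for others. The first was above the second in 74 of the 75 tested members, with a median log2 difference of 0.46, while over all 16528 genes the median was -0.00 and 49.8% were above 0. The first KD library was above the second in 64 members (median 0.17), and the libraries of the TNF-α-stimulated groups were close together (medians -0.01 and 0.01). The median of KD minus control was therefore between -0.47 and -1.13 according to which libraries were set against each other. Without the first control library the median of the members was -0.58, without the second -1.02, and without the second KD library -0.71.

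The differences moved with base composition. GC content was taken from the longest transcript of each gene. Across the 75 tested members, Spearman's rho of the KD log2 fold change with GC content was -0.57. Across the 16520 genes with a GC content it was -0.68. These genes share the same libraries and are not independent. The members had a median GC content of 47.4%, close to the 48.7% of all genes tested. Their exons together were shorter (median 2475 against 4532 bases). After each library was corrected by splines on GC content and on length, 63 members were called lower and 1 higher, against 27.6% and 24.5% of all genes, and the median was -0.70. Of the 61 members that fell before it, 55 were still called lower and 6 lost the call, among them ATP5PF, ATP5IF1 and NDUFB8 (-0.80 before, -0.44 after, adjusted p = 0.0708). In 15 of the 55 the value shrank by more than 1.5 times and in 7 it grew by more than that. A further 7 members gained a call as lower, NDUFA5 went from higher to lower, and 5 members in all changed sign: NDUFA5, NDUFS1, NDUFV2, UQCRC2 and ATP5S (0.14 before, -0.55 after, adjusted p = 0.00622). Complex IV remained the lowest (median -1.13), and the largest fall was that of COX6A1 (log2 fold change -1.65, standard error 0.211, adjusted p = 9.09e-04). NDUFB7, COX5B, NDUFB11, NDUFS6 and COX8A fell by 0.99, 1.13, 0.80, 0.99 and 0.93 in this fit. The member called higher was NDUFA13 (log2 fold change 0.76, adjusted p = 4.71e-04), which had no call before the correction and lies below 1 FPKM. The correction subtracts a trend fitted over all genes, also from genes near 0 FPKM. COL1A2, not above 0.0933 FPKM, went from -0.03 to -0.62 (adjusted p = 0.00116) in this fit. Corrected values of members near or below 1 FPKM are therefore uncertain. The total number of reads as scaling moved the median of all genes by 0.13 and that of the members to -0.52, with 50 members lower and 7 higher. The share of all genes called with this scaling is not given here.

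**Figure D3:**
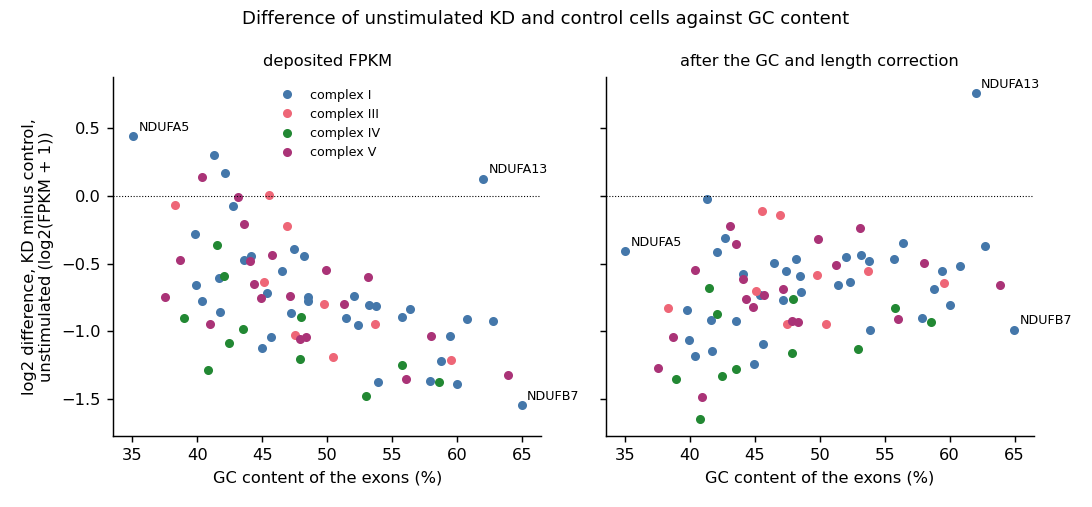
Log2 difference of unstimulated KD and control cells on the log2(FPKM + 1) scale (vertical axis) against GC content in percent (horizontal axis). The GC content is that of the longest transcript of each gene, although the axis names the exons. The 75 tested members are coloured by complex, from the deposited values (left) and after correcting for GC content and gene length (right). Points slope down to the right on the left side (Spearman's rho -0.57) and most stay below 0 after the correction, when rho is 0.28.

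Promoter sequence was looked at because many of the members were lower together, although 30.2% of all genes were called lower too. Windows of 300 bases, 250 before and 50 after the RefSeq start on GRCh38.p14, matched 65 of the 86 members, and 38 of the 65 starts lay within 100 bases of the outermost start of the gene in GENCODE. The letters GCGCATGC (core of the NRF1 site), searched on both strands, were in 11 of the 65 windows (16.9%) and in 3.27% of 27305 promoter windows of the same length. CCGGAAG, an ETS core as bound by GABPA, was in 17 (26.2%) against 10.7%, and AAGATGGCG, a YY1 site, was in 7 (10.8%) against 1.85%. TATAAA was in 7 (10.8%) against 12%. At least 1 of the first 3 was in 28 windows (43.1%), against 14.6% of all. The 27305 windows were not limited to the genes tested here. Median GC content was 60.3% in the windows of the members and 58.3% in all windows. Tested members with GCGCATGC had a median KD log2 fold change of -0.91 (11 genes, from -1.48 to -0.21) and those without it -0.81 (48 genes, from -1.54 to 0.44). With CCGGAAG the medians were -0.94 (17 genes) and -0.82 (42 genes). With AAGATGGCG the order was the other way, -0.67 with it (6 genes) and -0.86 without it (53 genes). A match of letters is not evidence of binding, and these values are a description.

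The 150 bases before the start are shown for the 5 members with the largest falls and for ATP5PF, whose window holds all 3 motifs, 5′ to 3′ on the strand of the gene, with matches to GCGCATGC, CCGGAAG or AAGATGGCG, or to their reverse complements, in capitals. They lie at chr2:97645912-97646061 (COX5B, plus strand), chrX:47144703-47144852 (NDUFB11, minus strand), chr5:1801257-1801406 (NDUFS6, plus strand), chr19:14572067-14572216 (NDUFB7, minus strand), chr11:63974470-63974619 (COX8A, plus strand) and chr21:25735055-25735204 (ATP5PF, minus strand). The starts of NDUFB11 and ATP5PF lie 802 and 619 bases inside the outermost GENCODE start.
COX5B: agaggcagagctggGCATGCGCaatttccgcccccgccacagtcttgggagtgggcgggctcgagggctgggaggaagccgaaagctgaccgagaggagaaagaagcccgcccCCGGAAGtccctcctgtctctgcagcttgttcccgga
NDUFB11: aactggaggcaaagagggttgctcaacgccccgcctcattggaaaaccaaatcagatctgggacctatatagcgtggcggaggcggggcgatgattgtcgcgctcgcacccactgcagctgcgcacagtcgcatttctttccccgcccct
NDUFS6: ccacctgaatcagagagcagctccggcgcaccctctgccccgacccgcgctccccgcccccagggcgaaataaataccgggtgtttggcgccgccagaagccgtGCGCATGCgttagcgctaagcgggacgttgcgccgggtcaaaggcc
NDUFB7: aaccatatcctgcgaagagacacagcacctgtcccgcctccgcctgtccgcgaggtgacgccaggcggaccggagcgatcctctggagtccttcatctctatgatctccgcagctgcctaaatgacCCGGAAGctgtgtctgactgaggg
COX8A: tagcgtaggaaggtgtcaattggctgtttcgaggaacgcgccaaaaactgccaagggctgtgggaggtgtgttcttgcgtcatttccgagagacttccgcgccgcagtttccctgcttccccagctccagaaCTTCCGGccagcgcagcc
ATP5PF: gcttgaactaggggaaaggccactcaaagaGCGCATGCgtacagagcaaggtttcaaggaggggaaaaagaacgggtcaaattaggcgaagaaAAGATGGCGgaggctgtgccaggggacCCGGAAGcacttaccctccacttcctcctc
COX5B has an NRF1 core and an ETS core before its start, NDUFS6 an NRF1 core, NDUFB7 and COX8A an ETS core each, while NDUFB11 has no match to the 3 motifs in its window. ATP5PF encodes coupling factor 6 of the stalk and its exons overlap those of GABPA on the opposite strand over 20.2% of their length. ATP5PF fell by 0.60 on the log2 scale in unstimulated KD cells (37.1 and 26.0 FPKM in control cells, 21.6 and 18.9 FPKM in KD cells, adjusted p = 0.0133), and GABPA rose by 1.43 (1.75 and 2.24 FPKM, 6.47 and 7.61 FPKM, adjusted p = 1.61e-04). After the correction for GC content and length, ATP5PF was no longer called (log2 fold change -0.24, adjusted p = 0.160), and the value for GABPA was 0.76.

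With TNF-α, none of the 75 tested members was called between KD and control cells, and none had an unadjusted p under 0.05 or was called by a voom fit of the recovered reads. Among all genes, 0.0605% were called higher and 0.0545% lower, so few genes of any kind were called. This test used the spread pooled over the 4 groups, which was widest between the unstimulated control libraries, so smaller differences may have been missed. The 86 members summed to 4097 and 4215 FPKM in control cells and to 4069 and 4050 FPKM in KD cells, and the KD mean was 97.7% of the control mean. The log2 fold changes lay between -0.30 and 0.18, with a median of -0.03. The KD libraries were both above the control libraries in 10 members and both below in 17, while 23.9% and 22.3% of all genes did so. NDUFB7, as an example, was at 182 and 206 FPKM in control cells and at 183 and 189 FPKM in KD cells. The difference farthest from 0 was that of NDUFB8, an accessory subunit of the membrane arm of complex I, at 4.37 and 5.19 FPKM in control cells and 4.26 and 3.16 FPKM in KD cells (log2 fold change -0.30, standard error 0.208, adjusted p = 0.823).

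TNF-α in control cells also gave no call among the members, with 5 at an unadjusted p under 0.05 and 0 by voom, while 3.1% of all genes were called higher and 1.14% lower. The median log2 fold change was -0.12, with 62 members below 0. This depended on the unstimulated control libraries: without the second, 22 members were called lower and the median was -0.33, and without the first none was called and the median was 0.08. Over all genes, 189 were called lower with both libraries and 699 without the second.

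TNF-α in KD cells went with higher levels of most members. Of the 75, 51 rose and 4 fell, with a median log2 difference of 0.63, while 31.1% of all genes were called higher and 31.4% lower. Complex IV had 9 of 11 higher (median 0.85), complex III 6 of 9 (0.69), complex I 25 of 36 (0.59, with 2 lower) and complex V 11 of 19 (0.48, with 2 lower). NDUFS6 rose from 45.1 and 29 FPKM to 98.2 and 106 FPKM (log2 difference 1.47, standard error 0.244, adjusted p = 0.00123). NDUFB7 rose by 1.47, ATP5F1D by 1.37, COX5B by 1.36 and NDUFB11 by 1.27, and in each the libraries of the groups did not overlap. The 4 that fell were NDUFA5 (log2 difference -0.43), NDUFV2 (-0.31), ATP5PB (-0.29, from 54.5 and 55.3 FPKM to 45.3 and 44.5 FPKM) and ATP5S (-0.27). After the correction for GC content and length, 60 members were higher and 1 lower, against 30.5% and 26% of all genes, and NDUFA5 and ATP5S had the opposite sign (0.40 and 0.37), while NDUFV2 and ATP5PB were not called. This comparison uses the same unstimulated KD libraries as the one of KD and control cells, so the rise and the fall are not independent of each other.

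The interaction tests whether the KD difference changed with TNF-α. It was positive and called for 48 of the 75 tested members and negative and called for none, with a median of 0.76, while 23.8% of all genes were called positive and 22.3% negative. In the negative direction the voom fit also gave 0. The largest were NDUFB7 (1.48, standard error 0.281, adjusted p = 0.00481), ATP5F1D (1.41), COX5B (1.39), NDUFB11 (1.38) and NDUFS6 (1.31, adjusted p = 0.0168). After the correction, 56 were positive and 1, NDUFA13 with a mean of 0.381 FPKM, negative, against 19.5% and 15.8% of all genes. Fewer members were called positive without the second unstimulated KD library, and more without the second unstimulated control library.

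**Figure D4:**
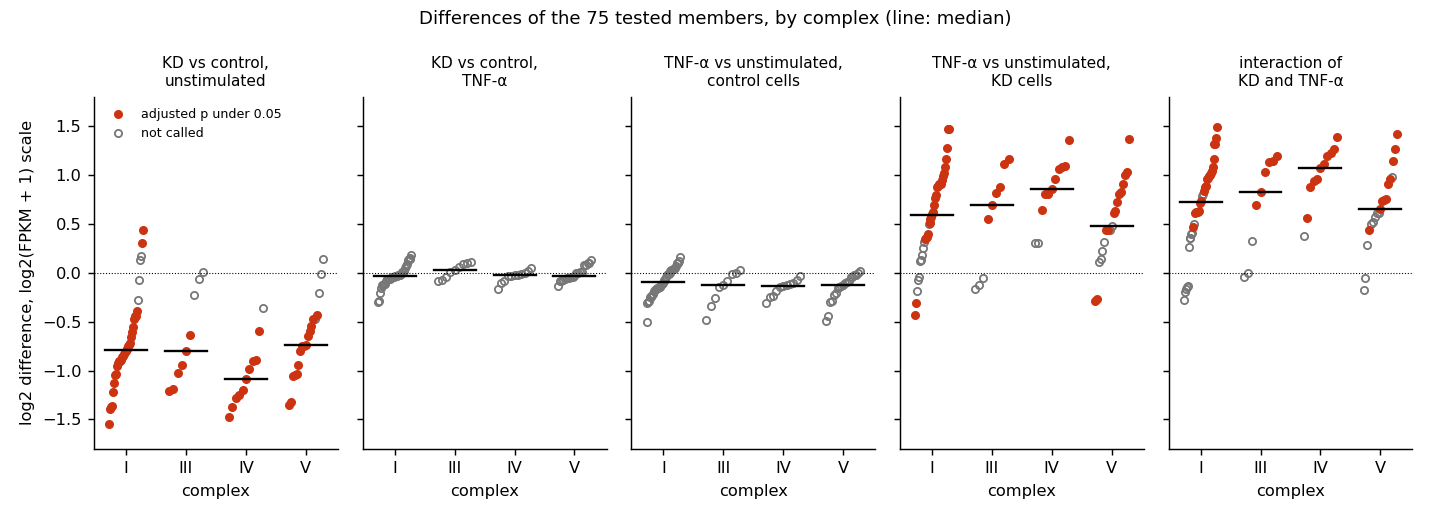
Log2 difference on the log2(FPKM + 1) scale (vertical axis) of the 75 tested members by complex (horizontal axis) in the 5 comparisons, filled where the adjusted p is under 0.05 and open otherwise, with the median of each complex as a line. Most points lie below 0 for KD against control without TNF-α, all lie between -0.30 and 0.18 with TNF-α, and most lie above 0 for TNF-α in KD cells and for the interaction.

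Most of the 13 subunits that the mitochondrial genome encodes moved the other way in unstimulated cells. Their FPKM summed to 21091 and 19134 in control cells and to 31684 and 33769 in KD cells, 163% of the control mean. Of the 13, 10 rose and none fell (median log2 fold change 0.86), against 29.8% and 30.2% of all genes. MT-ND4, a complex I subunit, was at 1183 and 1175 FPKM and at 2668 and 2830 FPKM (log2 fold change 1.22). The exception in sign was MT-ND3, also of complex I, at 1802 and 1404 FPKM in control cells and at 1308 and 1280 FPKM in KD cells (log2 fold change -0.30, adjusted p = 0.179). In the fit corrected for GC content and length the median was 0.75, with 12 called higher and MT-ND3 called lower (log2 fold change -0.86, adjusted p = 0.00173). With TNF-α the sum was 12786 and 11743 FPKM in control cells and 16293 and 16058 FPKM in KD cells, 132% of the control mean, with all 13 higher in both KD libraries but none called (7 had an unadjusted p under 0.05). TNF-α went with lower sums in both kinds of cells: 61.0% of the unstimulated mean in control cells, with 5 called lower and 1 higher, and 0.494 times in KD cells, with 11 called lower and 1 higher. The member higher in both was MT-ATP8, which overlaps MT-ATP6. Library preparation, and how far it keeps transcripts of mitochondria, is not given in detail in the sources used here.

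Other genes of the pathway were counted in the same comparison of unstimulated cells. In it, 30.2% of all genes tested were called lower and 29.8% higher, and 27.6% and 24.5% after the correction. Of complex II (succinate dehydrogenase) and the carriers, 4 of 6 fell. CYC1, the cytochrome c1 of complex III, whose name the rule does not match, was at 422 and 319 FPKM in control cells and at 155 and 123 FPKM in KD cells (log2 fold change -1.40, adjusted p = 3.30e-04). SDHA, the flavoprotein of complex II, fell by 0.83, while SDHD (-0.04) and CYCS, cytochrome c (0.24), were not called. After the correction SDHD was called lower (-0.38) and CYCS stood at -0.13, not called. Of 47 tested assembly factors, which fold, insert and equip subunits and are not part of the finished complexes, 19 fell and 5 rose, with a median of -0.19. COX14, ECSIT and SURF1 fell by 1.36, 1.22 and 1.17, and TMEM126B, TTC19, LYRM7, COA7 and COX20 were higher, by 0.54, 0.53, 0.48, 0.35 and 0.19. After the correction the median was -0.36, with 25 lower and 1, COA7, higher (0.31), while TMEM126B, TTC19, LYRM7 and COX20 were not called (0.05, -0.03, -0.21 and -0.12). Among 14 regulators, 5 fell and 5 rose, near the shares of all genes. POLRMT, the mitochondrial RNA polymerase, and ESRRA, a nuclear receptor, both fell by 0.84, and TFAM, which packages mitochondrial DNA, rose by 1.03 (9.76 and 10.9 FPKM, 21.8 and 22.4 FPKM). After the correction the values were -0.28, -0.20, 0.42 for these 3 and 0.76 for GABPA, and ESRRA was no longer called (adjusted p = 0.0555). NRF1 fell by 0.36 before the correction (adjusted p = 0.0141) and by 0.25 after it (adjusted p = 0.0482), and YY1 was called in neither. Mitochondrial ribosomal proteins (50 of 78 lower, 5 higher, median -0.67) and cytosolic ribosomal proteins (73 of 84 lower, 1 higher, median -1.06) also had medians below 0, and these lists were not tested against the respiratory chain genes.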

How the data were processed

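RNA-seq of total RNA from 8 libraries of U2OS cells was analysed. The authors deposited FPKM values for 58735 genes with their exon lengths. The unit was read from the values, since value times length came in whole steps of 1 size per library for 100% of the values (tolerance 0.001 reads), and these steps are the reads. The deposited library sizes were totals scaled over all 8 libraries together. The submitters' processing notes name CASAVA 1.8, fastp, HISAT2 2.0.5, featureCounts 1.5.0-p3 and DESeq2 1.20.0 on GRCh38, without their roles. All 58735 identifiers, positions and lengths matched release 29 of GENCODE. The GC content of a gene was that of its longest transcript in this release. The counting of strand and of shared exons was not given in the sources used here.

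The 16528 genes with 10 or more reads (at median depth) in 2 libraries and 15 or more in total were tested by limma 3.58.1 in R 4.3.3 on log2(FPKM + 1), with a mean per group over all 8 libraries (4 residual degrees of freedom), variances moderated with a trend, and Benjamini-Hochberg adjustment over all genes tested. A fold change on this scale understates that of genes near or below 1 FPKM. The deposited values are FPKM, and the edgeR test of the study's methods was not run. Voom on the recovered reads was an alternative in its place. Alternatives were a pseudocount of 0.1, other scalings and filters, the compared libraries alone, voom on recovered reads, splines (5 degrees of freedom) on GC content and length, a replicate block, and leaving out each library. The script was tested on simulated reads. Tables, motif searches and plots were made in Python 3.11.15 (matplotlib 3.10.9, pandas 2.3.3, numpy 2.4.6). Promoter windows were from RefSeq.

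Members and lists were chosen with earlier results of these data known. Members named were, per comparison, up to 5 with the largest rise and fall among those called whose libraries did not overlap (the interaction by its call alone), core and catalytic subunits (some values are not reported here), paralog sets, the 3 highest and 3 lowest by level, and those not tested. ATP5PF, NDUFB8, NDUFS4 and genes of the other lists were named after their values were seen.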

Additional observations from a re-analysis of the deposited data

Results flagged for a closer look

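The KD difference was tested against itself between unstimulated and TNF-α-stimulated cells, by the interaction term of the limma fit, and the following results passed it. For 48 members the KD difference was higher with TNF-α than without at an adjusted p under 0.05, and for 0 members it was lower, as the voom fit of the reads also gave. By the same term, 23.8% of all 16528 genes tested were called higher and 22.3% lower. The 5 largest log2 differences between the KD effects were 1.48 for NDUFB7, 1.41 for ATP5F1D, 1.39 for COX5B, 1.38 for NDUFB11 and 1.31 for NDUFS6. In all 5 genes both unstimulated KD libraries were below the other 6 libraries. With 2 libraries per group, an outlying library cannot be told from its partner. When single libraries were left out, as given below, NDUFS6 lost its call in some of the fits.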

How the results depend on the processing

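No member was called between KD and control cells with TNF-α under any alternative. The counts of members below are given without the shares of all genes called in the same fits. Changes in overall calling may enter them. The counts of members higher and lower were 2 and 61 for unstimulated KD against control cells, 51 and 4 for TNF-α in KD cells, and 48 and 0 for the interaction, and those that moved by over 1.5 times follow. A pseudocount of 0.1, a mean of at least 1 CPM, the 4 compared libraries alone, voom and the correction for GC content and length each left 1 member higher in unstimulated KD cells, as did the absence of a filter. Scaling to total reads gave 7 higher there, 9 lower for TNF-α in KD cells and 3 lower for the interaction. Without a filter, 2 were lower for TNF-α in KD cells and 31 higher for the interaction. With the correction, 1 was lower in each of these. The correction turned NDUFA5 to -0.41 in unstimulated KD cells and 0.40 for TNF-α in KD cells, NDUFV2 to -0.023 and 0.087, and ATP5S to -0.55 and 0.37. It also turned NDUFS1 to -0.42 and 0.35, called in both, where neither was before. The cause of these moves was not tested. The corrected values of NDUFV2, NDUFA5 and ATP5S, which had low levels, are uncertain.

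Leaving out each library in turn gave 1 to 2 higher and 47 to 66 lower for KD against control without TNF-α, 0 to 22 lower for TNF-α in control cells, 35 to 57 higher and 1 to 4 lower for TNF-α in KD cells, and 30 to 64 higher and 0 to 1 lower for the interaction. The 22 were without the second unstimulated control library. The counts of 30 were without the second unstimulated KD library and without the first TNF-α-stimulated control library, and in each the fit lost a library of a group of 2, whose remaining library was assumed to vary like the others. NDUFS6 lost its call in the interaction without the second unstimulated KD library, the first TNF-α-stimulated control library or the second TNF-α-stimulated KD library (adjusted p 0.0519 to 0.0612). NDUFV2, ATP5PB and ATP5S lost theirs for TNF-α in KD cells in several of these fits, ATP5PB and ATP5S with any of the 4 KD libraries left out (adjusted p 0.102 to 0.145), and WSB2 with TNF-α without the second TNF-α-stimulated KD library (adjusted p 0.0519).

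The replicate numbers were not treated as pairs in the main fit. The correlation of their deviations between groups ranged from -0.19 to 0.35, the highest being between unstimulated control and unstimulated KD libraries. With 2 libraries per group these values cannot show whether the libraries were paired. A replicate block gave 1 higher and 62 lower for KD against control without TNF-α, 52 and 4 for TNF-α in KD cells and 50 and 0 for the interaction.

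Between the libraries of a group, the variance over sampling noise was 33 for unstimulated control cells and 2.49 to 7.23 for the other groups, so that depth did not limit the well expressed members. With 83 and 141 reads in all, NDUFV2 and NDUFA13 were limited by depth. A missed threshold does not show that a member was unchanged.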
